A study of Mus musculus with 23 samples.

Results

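The histone genes were followed through their accessible chromatin, as all ATAC-seq peaks to which the authors gave a histone gene name. Members were the peaks whose name starts with Hist1h to Hist4h, H1f, H2af or H3f. The rule gave 173 peaks over the 3 days of the study, 61 on day -2, 55 on day -1 and 57 on day 0, among 32094 peaks with an authors' gene and 153043 peaks in all. They carried 55 gene names, of which 46 occurred on all 3 days, 7 on 2 days and 2 on 1 day.

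Histones are the proteins around which DNA is wrapped. An octamer of the core histones H2A, H2B, H3 and H4 forms the nucleosome, and the linker histone H1 binds where DNA enters and leaves it. Replication-type histone genes (Hist1h to Hist4h) are used mainly in S phase, carry no introns, end their mRNAs in a stem-loop instead of a poly(A) tail, and lie in clusters, the largest on mouse chromosome 13. Replacement histone genes (H1f, H2af, H3f) lie mostly outside these clusters and are used throughout the cell cycle. Kdm5c is an enzyme that removes methyl groups from lysine 4 of histone H3, and confluent preadipocytes of this kind re-enter the cell cycle when differentiation is induced.

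Cells of 3T3-L1, an established mouse preadipocyte line, were reverse-transfected while sub-confluent, using Lipofectamine RNAiMAX, with 50 nM siRNA. It was either the scramble siRNA, which has no target, or siRNA against Kdm5c. Nuclei came 24, 48 and 72 hours later, on days -2, -1 and 0. Each arm had 4 libraries per day, except that Kdm5c siRNA on day 0 had 3, numbered 1, 2 and 4, so there were 23 libraries. Separate cultures are not stated in the labels; the p-values rest on a spread between libraries that may be purely technical. All cells are of 1 line, and the libraries hold no transcript level by which the knockdown could be checked.

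In ATAC-seq a transposase cuts open DNA, and the count of reads in a peak measures how accessible it is. Each library had 4474964 to 14913397 counts in peaks, of which mitochondrial peaks held 56.4% to 93.2%. That left 781309 to 3345583 nuclear counts, of which 1152 to 4076 per library were in histone peaks. Nuclear depth differed by day. Libraries of day -2 held 1816082 to 3345583, those of day -1 781309 to 1446979 and those of day 0 1088968 to 2525925. The mitochondrial shares, in the same order, spanned 56.4% to 76.3%, 87.6% to 93.2% and 78.8% to 91.4%. Whether depth bears on the number or width of peaks, or on promoters without a peak, was not tested. Of 10 preadipocyte or fibroblast marker genes, 7, 6 and 6 had a named peak on days -2, -1 and 0, Pdgfra, Cd34 and Fn1 on none, while 3 blood and 2 epithelial markers had none. The endothelial marker Cdh5 and the muscle markers Myod1 and Myog had a named peak on day -2 alone, the day with 84019 peaks against 31970 and 37054. In bulk libraries, fewer cells with an open site and a less open site in each cell cannot be told apart.

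Promoters of the histone families differed in the elements their sequence held. RefSeq windows of 250 bases before to 50 bases after the start were at hand for 79 of 93 histone genes, in 80 windows. The letters searched on both strands were CCAAT, the octamer ATTTGCAT bound by Oct factors, the H1 box AAACACA and TATAAA, and these letters do not contain each other. CCAAT was in 35 of 35 windows of replication-type H2A and H2B genes, 10 of 10 of H3 genes and 6 of 6 of H1 genes, but in 3 of 12 of H4 genes, beside 37.4% of all 32851 RefSeq windows. The octamer was in 14 of the 35 H2A and H2B windows, 40.0%, and in none of the H1, H3 and H4 windows, beside 1.74% of all. The H1 box was in 5 of 6 H1 windows, beside 7.18%, and TATAAA in 37 of the 80 histone windows, beside 13.6%. Windows of divergent H2A and H2B pairs, such as Hist1h2ae and Hist1h2bg, overlap and were searched on both strands, so a shared match counts in each. Some other windows belong to duplicated copies. The counts are therefore of windows and not of separate sequences. A match is a run of letters and was not tested as a binding site.

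Shown here are the bases before the start of 5 genes that stand for a linker gene, a divergent pair, a replication-type H4 gene, the H4 gene with the highest count and a replacement gene. All are RefSeq sequence of GRCm38.p6, read 5′ to 3′ toward the gene, and capitals mark matches to the searched letters or their reverse complement. The Hist1h1c run is chr13:23738557-23738806 (plus strand), with an H1 box 112 bases and a CCAAT box 54 bases before the start. The Hist1h2ae run, chr13:23571221-23571399 (minus strand), is the whole 179 bases between its start and that of its divergent neighbour Hist1h2bg, with the octamer on the opposite strand. The other runs are chr13:23581318-23581567 for Hist1h4d (plus), chr6:136804432-136804681 for Hist4h4 (minus, no match) and chr3:137864237-137864486 for H2afz (plus).
Hist1h1c: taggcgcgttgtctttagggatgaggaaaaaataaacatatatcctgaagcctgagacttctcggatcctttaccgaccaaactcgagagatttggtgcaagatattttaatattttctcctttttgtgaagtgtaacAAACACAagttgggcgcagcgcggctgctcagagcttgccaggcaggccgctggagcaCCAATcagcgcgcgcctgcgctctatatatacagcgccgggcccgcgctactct
Hist1h2ae: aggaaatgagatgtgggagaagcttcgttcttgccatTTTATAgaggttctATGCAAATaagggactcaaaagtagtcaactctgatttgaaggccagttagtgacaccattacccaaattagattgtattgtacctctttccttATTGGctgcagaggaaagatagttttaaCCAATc
Hist1h4d: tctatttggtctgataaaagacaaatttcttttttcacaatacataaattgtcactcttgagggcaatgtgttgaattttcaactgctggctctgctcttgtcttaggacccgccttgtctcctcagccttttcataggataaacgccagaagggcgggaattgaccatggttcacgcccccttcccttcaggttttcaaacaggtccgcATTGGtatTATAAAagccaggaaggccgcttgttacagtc
Hist4h4: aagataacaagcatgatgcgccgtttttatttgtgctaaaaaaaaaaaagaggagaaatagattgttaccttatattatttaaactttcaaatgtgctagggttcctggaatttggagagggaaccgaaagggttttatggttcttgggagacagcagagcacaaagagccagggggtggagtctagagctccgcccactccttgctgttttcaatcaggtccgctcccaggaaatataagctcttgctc
H2afz: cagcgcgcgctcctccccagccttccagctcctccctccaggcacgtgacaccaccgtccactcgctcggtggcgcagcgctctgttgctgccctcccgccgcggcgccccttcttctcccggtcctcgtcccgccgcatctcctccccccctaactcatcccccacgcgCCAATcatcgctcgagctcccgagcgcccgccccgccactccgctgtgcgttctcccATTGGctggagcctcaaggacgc

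Most member peaks lay in the chromosome 13 cluster and sat on start sites. The cluster, from the first to the last RefSeq histone gene, ran over 2219.2 kb (chromosome 13, 21715711 to 23934913) with 55 histone genes and held 39, 37 and 37 of the member peaks on days -2, -1 and 0. It has 2 dense blocks of 327.9 kb and 403.9 kb. In the second block, 24 of 30 peaks on day -2, 23 of 26 on day -1 and 22 of 27 on day 0 carried a histone name, and Hfe on day -2 was the only other gene named. Among the 61 members of day -2, 36 covered 1 RefSeq histone start, 9 covered 2 and 16 covered none, the last including peaks whose gene has no window.

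Divergent H2A and H2B genes were often measured as 1 region. Of the day -2 members, 13 overlapped 2 histone genes of any kind, with a median width of 1052 bases against 662 for the 48 others. Not all of the 13 were H2A and H2B pairs. The peaks named Hist2h2aa1 and Hist2h2aa2, both duplicated copies, each covered the starts of an H2A and an H3 gene. Their median normalised count in scramble was 69.0 against 35.2, while the median per kb of peak was 66.3 against 56.9. Such a peak carries 1 of its gene names, so the peak named Hist1h2bf also covered the start of Hist1h2ad, Hist1h2an that of Hist1h2bp, and Hist1h2ae that of Hist1h2bg. A peak on the start of the linker gene Hist1h1e was named Hist1h2be on days -2 and 0 and Hist1h1e on day -1. Classes here follow the name, so this peak counted as core on days -2 and 0 and as linker on day -1. The peak named H3f3aos, an antisense RNA, covered the start of H3f3a, a gene of the replacement histone H3.3, and peaks at the starts of H3f3b and Hist1h1d had no authors' gene and so are no members.

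Some histone promoters had no peak. Windows without any peak numbered 18, 22 and 21 of 80 on days -2, -1 and 0, and 16 had none on any day. These 16 included Hist1h1t, Hist1h2ba and Hist1h2aa, genes known for use in testis, and Hist1h1a. They also included Hist1h2ao, Hist1h2bq, Hist1h2ap and Hist1h2br, whose windows share an identical run of at least 50 bases with each other's. The labels do not state how reads that fit several copies were counted, so low counts at such copies are uncertain. The 7 member peaks named for duplicated Hist genes (2 of Hist1h4j and 1 each of Hist1h4k, Hist1h4m, Hist1h4n, Hist2h2aa1 and Hist2h2aa2) had a median count per kb at percentile 2.6, 0.5 and 0.8 of all gene-named nuclear peaks on the 3 days, against 24.7, 21.8 and 11.6 for the other replication-type core peaks.

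Per kb of peak, replication-type core histone peaks had lower median accessibility than replacement core peaks on each day. A percentile here ranks the scramble mean count per kb of a peak among the 12265, 9688 and 10131 nuclear peaks with an authors' gene on days -2, -1 and 0. Replication-type core peaks had medians of 15.2, 18.1 and 7.2, and 40 of 45, 38 of 43 and 42 of 43 lay below percentile 50. Replacement core peaks (H2af and H3f) had medians of 62.95, 69.8 and 53.9, and replacement linker peaks (H1f) of 35.75, 41.6 and 45.35. Of the replacement core peaks, 3 of 8, 2 of 6 and 4 of 8 also lay below percentile 50. Ranked by count and not per kb, the replication-type core peaks had median percentiles of 42.4, 23.4 and 26.9, with 28 of 45, 32 of 43 and 36 of 43 below percentile 50. These are descriptions of peaks called by the authors, with no test, and the replication-type values include the duplicated copies above.

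**Figure D1:**
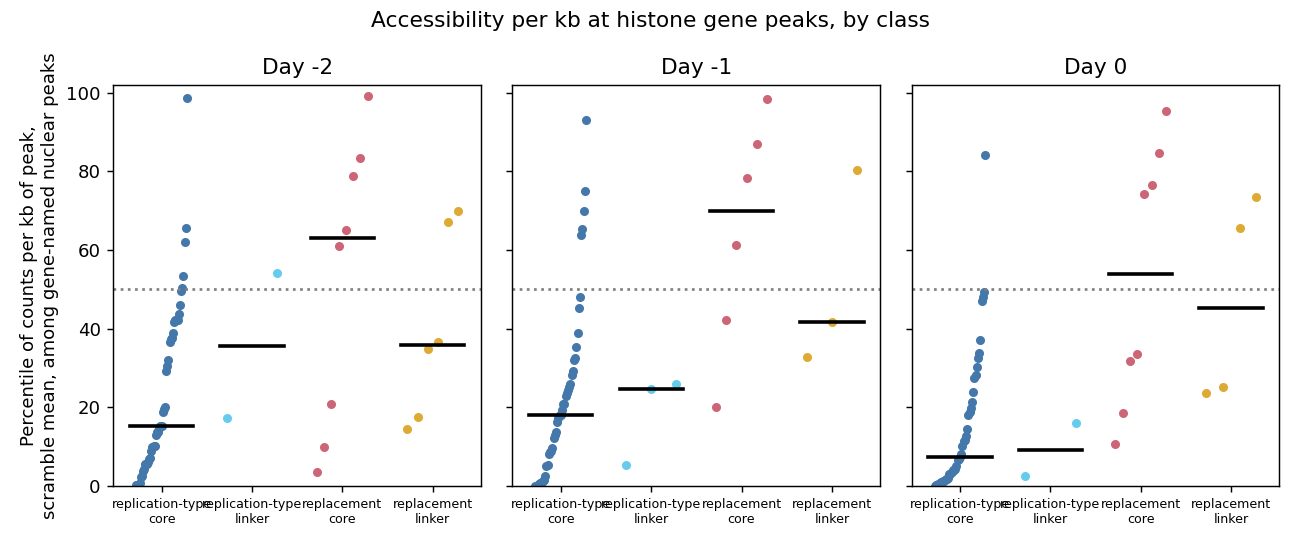
Each point is a member peak on days -2, -1 and 0, placed by class (horizontal axis) and by the percentile of its scramble mean count per kb among gene-named nuclear peaks (vertical axis). Black bars are class medians and the dotted line is percentile 50; the replication-type core medians of 15.2, 18.1 and 7.2 lie under it on each day.

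A replacement gene, H2afj, gave the histone peak with the highest density on each day. The H2afj peak, of an H2A variant, held 143.6 ± 14.96, 95.6 ± 31.4 and 117.5 ± 26.3 normalised counts in scramble on the 3 days in order (SD, n = 4 each), at percentile 99.3, 98.4 and 95.4 per kb. H2afz, which encodes H2A.Z, held 112.5 ± 19.2, 67.5 ± 21.3 and 67.4 ± 12.6, at percentile 83.4, 61.3 and 74.2. H2afv, which encodes a second H2A.Z, held 110.4 ± 8.15, 74.8 ± 10.8 and 88.3 ± 13.8, at percentile 78.7, 86.9 and 84.6. H2afx, the variant phosphorylated at DNA breaks, held 107.5 ± 21.8, 53.0 ± 3.23 and 70.5 ± 17.5, at percentile 65.0, 42.3 and 33.6. Normalised counts are scaled within a day, so they are set side by side and not compared between days.

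Other replacement genes, apart from H3f3aos, had weaker peaks. H2afy, which encodes macroH2A1, held 63.2 ± 8.49 on day -2, had no named peak on day -1, and held 49.1 ± 6.79 at the end. H2afy2, which encodes macroH2A2, held 24.5 ± 3.00 on day -2, and 9.32 ± 9.72 and 6.68 ± 3.46 in 2 narrow peaks on day 0. The peak over the H3f3a start (H3f3aos) held 112.6 ± 17.8, 80.4 ± 6.60 and 99.7 ± 24.95. A separate peak named H3f3a, 672 bases from that start on day -2 and 949 on day -1, held means of 6.60 and 9.40. These were the lowest of the replacement core peaks on those days, and day 0 had no peak of that name. H1f0, a linker histone of non-dividing cells, held 50.4 ± 3.15 on day -2, 26.2 ± 4.404 on day -1 and 15.6 ± 8.92 and 35.3 ± 13.2 in 2 peaks on day 0. H1foo, the oocyte linker histone, had a peak on each day with 63.7 ± 8.41, 32.3 ± 4.29 and 34.8 ± 13.3, which lay 573 bases from its start on day -2. H1fx had 3 peaks on day -2, none over its start, with 8.10 ± 5.76, 30.1 ± 1.51 and 32.9 ± 7.16, and 1 on day 0 with 21.8 ± 5.37. H1fnt, a testis linker histone, had 32.4 ± 10.2 on day -2 and 7.81 ± 1.47 on day -1.

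Hist4h4 had the highest percentile of the replication-type core genes on each day. Hist4h4, an H4 gene on chromosome 6, lies near H2afj. The windows of Hist4h4 and H2afj are chr6:136804382-136804681 and chr6:136807998-136808297. Hist4h4 had the highest count of all histone peaks on each day, 211.2 ± 7.38, 137.9 ± 28.85 and 164.4 ± 32.7 in scramble (SD, n = 4). The percentile of Hist4h4 per kb was 98.6, 93.1 and 84.2. The next peaks classed by name as replication-type core were Hist1h4h at 65.6 on day -2 and Hist1h2ab at 74.9 on day -1. On day 0 the next was the peak named Hist1h2be at 49.2, which lies on the start of the linker gene Hist1h1e. Hist1h1c, a linker gene, had percentiles of 54.1, 24.5 and 2.4 on the 3 days; on day 0 its region was called as 2 peaks, of which 1 carries its name. At the other end of day -2 stood Hist2h2aa1 at 0.1 and Hist2h2aa2 and Hist1h4n at 0.3, all duplicated copies.

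No histone peak was called between Kdm5c siRNA and scramble on any day. The low-count filter left 57, 47 and 52 members to test on days -2, -1 and 0, and 0 of each passed an adjusted p of 0.05 in edgeR's quasi-likelihood test, adjusted over all peaks by the Benjamini-Hochberg method, nor in DESeq2. Calls were as rare among all peaks, 0.00404%, 0% and 0.00352%. An unadjusted p under 0.05 was found for 5, 2 and 3 members, beside 4.63%, 5.37% and 6% of all peaks tested. In 5, 4 and 2 members the libraries of the arms did not overlap, beside 2.86%, 3.28% and 6.22% of all peaks.

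**Figure D2:**
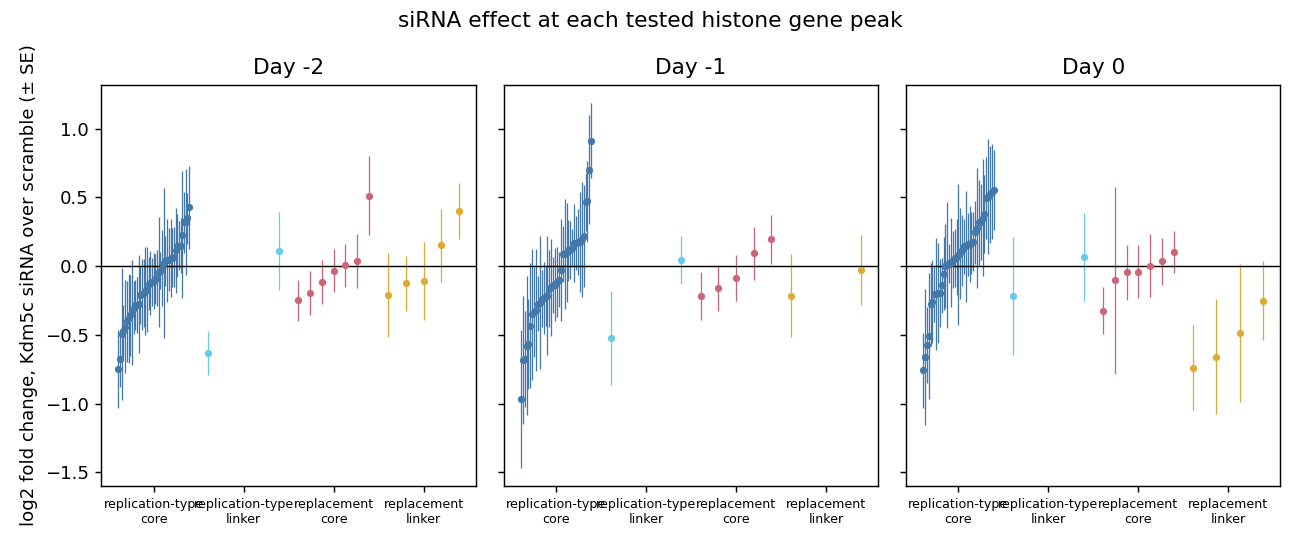
Each point is a tested member peak, by class (horizontal axis) on days -2, -1 and 0, with its log2 fold change of Kdm5c siRNA over scramble and the standard error (vertical axis). The medians over all tested members are -0.11, -0.12 and 0.03.

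The members as a group showed small differences. Their median log2 fold change was -0.11 on day -2, with 22 above and 35 below 0, then -0.12 (19 above, 28 below) and 0.03 (31 above, 21 below), beside 0.000, -0.003 and -0.009 for all peaks tested. Replication-type core peaks had medians of -0.11, -0.13 and 0.08 and replacement core peaks -0.03, -0.09 and -0.04. On day 0 the 4 replacement linker peaks, 2 of H1f0 and 1 each of H1fx and H1foo, had values from -0.74 to -0.25. Peaks of the chromosome 13 cluster had medians of -0.10, -0.12 and 0.08, and members outside it -0.11, -0.12 and -0.04. Single libraries turned the sign of the median over all members on 2 days: without Kdm5c siRNA library 2 it was 0.003 on day -2 and -0.01 on day 0, where it was 0.09 without Kdm5c siRNA library 4. On day -1 it stayed between -0.15 and -0.05 without each library.

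Hist1h1c, which encodes the linker histone H1.2, had the smallest p of any member. Its day -2 peak (chromosome 13, 23738507 to 23740016, 1509 bases) covers its start and gene. It held 78.1, 83.7, 83.5 and 89.8 normalised counts in the 4 Kdm5c siRNA libraries and 134.0, 129.9, 125.3 and 131.1 in the 4 scramble libraries. All Kdm5c siRNA libraries lay below all scramble libraries. The log2 fold change was -0.63 (SE 0.16), with an unadjusted p of 9.39e-05 and an adjusted p of 0.774 over 49455 peaks in edgeR's quasi-likelihood test, so it was not called. Mitochondrial peaks held 56.4% to 70.02% of counts in the Kdm5c siRNA libraries of that day and 70.4% to 76.3% in the scramble libraries. Whether this difference between the libraries bears on Hist1h1c was not tested. Leaving out the mitochondrial peaks, which gave a log2 fold change of -0.62, alters library totals only and cannot decide it.

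The difference was not seen at Hist1h1c on the later days. On day -1 its peak held 57.1, 73.1, 70.8 and 71.6 in Kdm5c siRNA and 72.8, 62.4, 48.96 and 78.0 in scramble, and the arms overlapped. On day 0 the authors' peak of that name was 732 bases wide and held 37.5, 25.1 and 20.9 in Kdm5c siRNA and 22.5, 24.2, 30.7 and 25.5 in scramble. A separate peak of 637 bases with no gene name (23739456 to 23740093) took the rest of the region, and both together held 69.9 ± 6.04 (SD, n = 3) and 64.1 ± 8.42 (n = 4). The log2 fold changes of the named peak were 0.04 (SE 0.18) and 0.07 (SE 0.32), and the difference between days was not tested, because the peaks could not be matched 1 to 1.

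**Figure D3:**
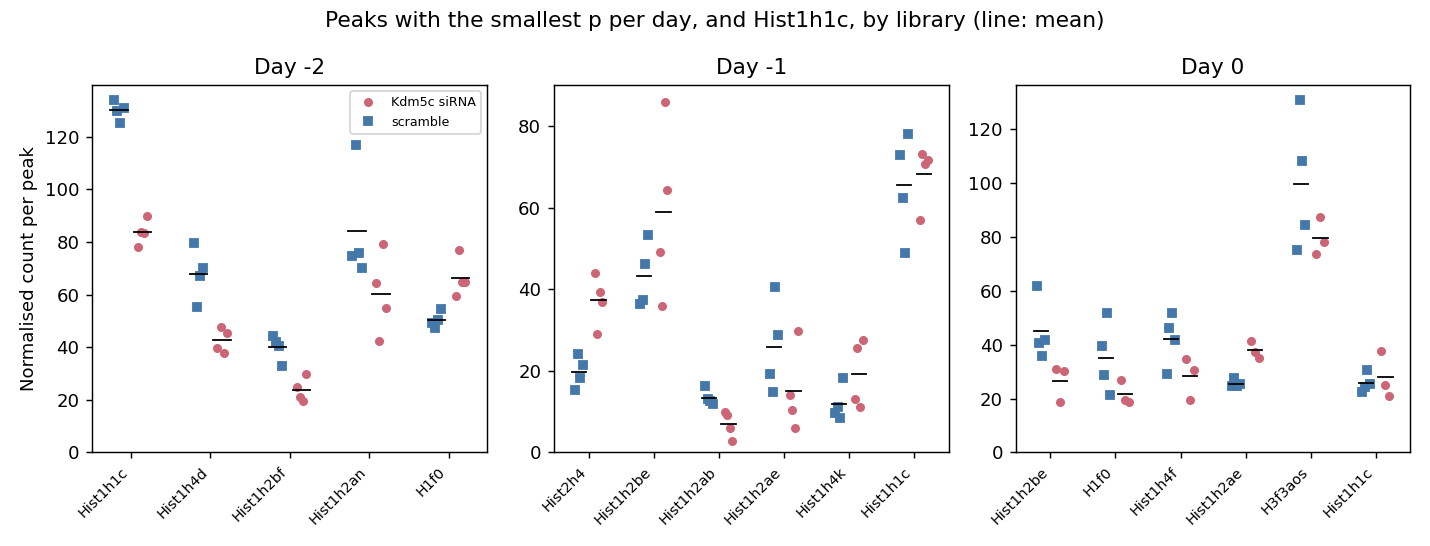
Normalised counts of single libraries (vertical axis) on each day for the 5 members with the smallest p and for Hist1h1c; squares are scramble, circles Kdm5c siRNA and lines means. On day -2 the Hist1h1c circles lie between 78.1 and 89.8, all below the squares.

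Other core histone peaks of day -2 with small p stood lower with Kdm5c siRNA, and none was called. Hist1h4d, an H4 gene, held 39.7, 47.5, 37.6 and 45.5 with Kdm5c siRNA and 79.6, 55.1, 67.1 and 69.98 with scramble, with no overlap, and a log2 fold change of -0.67 (SE 0.21; adjusted p 0.980, edgeR). The shared Hist1h2bf and Hist1h2ad peak held 24.8, 21.1, 19.6 and 29.9 against 44.2, 42.0, 40.5 and 33.0, again with no overlap (-0.75, SE 0.28). Hist1h2an differed by -0.47 (SE 0.19) with overlapping arms, and scramble library 2 stood apart at 116.8; the value was -0.30 without it and -0.31 without Kdm5c siRNA library 2. The linker H1f0 differed the other way, 59.5 to 76.9 against 47.2 to 54.7, at 0.40 (SE 0.20). All 4 had the adjusted p of 0.980.

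On day -1 the smallest p was at Hist2h4, an H4 gene of the smaller cluster on chromosome 3. Its peak (96263004 to 96263485) held 44.1, 29.0, 39.4 and 36.9 with Kdm5c siRNA and 15.3, 24.2, 18.2 and 21.4 with scramble. The arms did not overlap, and the log2 fold change was 0.91 (SE 0.27; unadjusted p 0.00120, adjusted p 0.734, edgeR). Hist1h2be was at 0.47 (SE 0.21), the low peak of Hist1h2ab at -0.97 (SE 0.50), Hist1h2ae at -0.67 (SE 0.35) and Hist1h4k, a duplicated copy, at 0.70 (SE 0.39). Only Hist1h2ab among these 4 had arms that did not overlap. Leaving out 1 library moved Hist1h2be from 0.24 (without Kdm5c siRNA library 3) to 0.62, Hist1h2ae from -1.30 (without Kdm5c siRNA library 4) to -0.41 (without scramble library 3), and Hist1h4k from 0.46 (without Kdm5c siRNA library 4) to 0.98.

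On day 0 the smallest p belonged to the peak at the Hist1h1e start that the authors named Hist1h2be (23622065 to 23622646). It held 30.8, 18.6 and 30.2 with Kdm5c siRNA and 61.8, 40.7, 35.6 and 41.6 with scramble, without overlap, for a log2 fold change of -0.76 (SE 0.27; adjusted p 0.712, edgeR). The wider H1f0 peak was at -0.74 (SE 0.31), the opposite sign from its day -2 peak, and Hist1h4f at -0.58 (SE 0.27). The divergent pair Hist1h2ae and Hist1h2bg, whose 179 shared bases are printed above, held 41.6, 37.2 and 35.2 against 24.7, 27.5, 24.6 and 25.5 and did not overlap (0.55, SE 0.29), where on day -1 it was at -0.67. H3f3aos was at -0.32 (SE 0.17). Without Kdm5c siRNA library 2 Hist1h4f was at -0.38, without scramble library 2 H3f3aos was at -0.16, and with the replicate number as a block H1f0 was at -0.44. The mitochondrial share of counts did not overlap between the arms on day 0 either. It was 78.8% to 86.75% with Kdm5c siRNA and 87.5% to 91.4% with scramble, and whether this bears on these peaks was not tested.

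In the summed share of histone peaks, the libraries of the arms overlapped on each day. On day -2 histone peaks held 0.127% ± 0.0174 of nuclear counts with Kdm5c siRNA and 0.136% ± 0.00662 with scramble (SD, n = 4 each). The shares were 0.159% ± 0.0109 and 0.161% ± 0.0139 on day -1, and 0.150% ± 0.00255 (n = 3) and 0.145% ± 0.00678 on day 0. The ratio of arms was 0.928, 0.988 and 1.03, and for the chromosome 13 cluster alone 0.906, 0.978 and 1.07. By class, the arms did not overlap for replication-type linker peaks on day -2, which include Hist1h1c. They held 0.00446% to 0.00524% with Kdm5c siRNA and 0.00624% to 0.00693% with scramble. Nor did they for replacement linker peaks on day 0, at 0.00459% to 0.00574% and 0.00665% to 0.00910%. The arms overlapped for the other classes and days.

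Between days, few histone peaks were called. Days could be compared at 13674 tested peaks that matched 1 to 1 between all 3 days with a reciprocal overlap of 50%. Of these, 39 are members (33 replication-type core, 5 replacement core, 1 replacement linker). Classes are by name, so the Hist1h1e-start peak named Hist1h2be is among the core members. Day and library preparation cannot be told apart. In scramble, 1 member was called between days -2 and -1, 1 between days -1 and 0 and 2 between days -2 and 0, beside 5.73%, 6.85% and 20.6% of all matched peaks. In Kdm5c siRNA the counts were 1, 1 and 0, beside 6.36%, 3.79% and 14.9%. Members all carry a gene name, and all matched peaks include many without one. Of the 6975 matched nuclear peaks with an authors' gene, 674 were called higher and 190 lower from day -2 to 0 in scramble. In Kdm5c siRNA 478 were called higher and 221 lower. An unadjusted p under 0.05 was found for 4, 5 and 7 members in scramble and 6, 3 and 5 in Kdm5c siRNA, beside 19.6%, 21.6%, 31.7%, 20.7%, 17.5% and 28% of all matched peaks. The libraries of the days compared did not overlap in 5, 3, 6, 0, 4 and 5 members, beside 11.1%, 10.9%, 20.7%, 11.1%, 14.4% and 24.3%.

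The called day differences were at H4 genes, an H2B gene and H2afz. Hist2h4 held 41.97, 42.7, 57.7 and 44.8 normalised counts in scramble on day -2 and 19.9, 31.5, 23.5 and 27.5 on day -1, without overlap, and its log2 fold change was -0.87 (SE 0.25; adjusted p 0.0205, edgeR). Its peak was 908 bases wide on day -2 and 481 on day -1, and per base of peak the value was 0.045. The call was lost without scramble library 3 of day -2 or library 1 of day -1 (adjusted p up to 0.0958). In Kdm5c siRNA Hist2h4 held 49.0, 40.2, 51.3 and 35.9, then 57.3, 37.5, 51.0 and 48.3, which overlap. As counted this was no call, but per base of the narrower peak it was 1.05 (adjusted p 0.000783), beside 8.89% of all matched peaks called in that setting.

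H2afz was the one replacement gene called. In Kdm5c siRNA it held 88.5, 117.1, 87.6 and 108.0 on day -1 and 65.1, 67.2 and 68.3 on day 0, so that it fell by 0.58 on the log2 scale (SE 0.18; adjusted p 0.0484, edgeR). No library of day 0 reached any of day -1. The peak was 944 bases wide on day -1 and 666 on day 0, and per base of peak the value was -0.08 (adjusted p 0.897), while DESeq2 gave an adjusted p of 0.0593. Leaving out 1 library ended the call in 10 of 23 cases, each of the 3 Kdm5c siRNA libraries of day 0, libraries 2 and 4 of day -1 and 1 and 4 of day -2 in that arm, and scramble libraries 2, 3 and 4 of day -2, with adjusted p up to 0.139. The scramble libraries overlap, with 80.9, 64.1, 77.7 and 126.6 on the earlier day against 62.7, 86.7, 55.9 and 74.2.

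Hist1h4m fell from low counts. It held 14.9, 9.68, 10.85 and 24.8 in scramble on day -1 and 5.81, 3.47, 0 and 8.25 on day 0, without overlap (log2 fold change -1.77, SE 0.56; adjusted p 0.0357, edgeR). Against day -2, at 25.6, 15.3, 6.08 and 16.2, it was -1.81 (SE 0.54; adjusted p 0.00876), with overlapping libraries. Its window shares a run with Hist1h4n, so its counts are among the uncertain ones. The first call was lost per base of peak (-1.32, adjusted p 0.168) and without scramble library 1 or 4 of day -1 or library 2 or 3 of day 0 (up to 0.169); the second was lost without scramble library 1 of day -2 or library 3 of day 0 (up to 0.0625).

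The remaining calls had overlapping libraries. Hist1h4d in scramble held 64.5, 42.7, 51.7 and 56.5 on day -2 and 30.2, 43.9, 29.2 and 30.2 on day 0 (-0.68, SE 0.24; adjusted p 0.0330, edgeR). Its peak narrowed from 726 to 487 bases, the value per base was -0.11 (adjusted p 0.810), and the call was lost without scramble library 1, 3 or 4 of day -2 or 1, 3 or 4 of day 0 (up to 0.105). Hist1h2be in Kdm5c siRNA held 56.0, 46.5, 43.1 and 53.8 on day -2 and 63.8, 46.5, 111.1 and 84.3 on day -1 (0.64, SE 0.20; adjusted p 0.0292), and this call was lost without Kdm5c siRNA library 2 or 3 of day -2 or 3 or 4 of day -1 (up to 0.2504) and at peaks matched by 80% overlap (0.135).

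**Figure D4:**
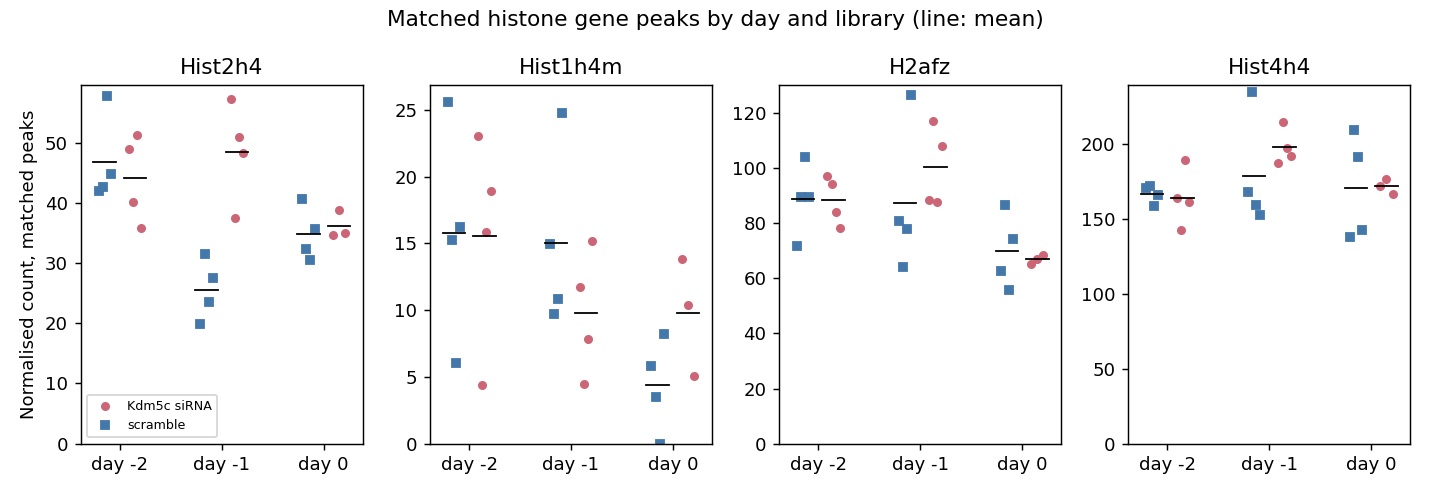
Normalised counts of single libraries (vertical axis) at 4 matched peaks on days -2, -1 and 0; squares are scramble, circles Kdm5c siRNA and lines means. H2afz with Kdm5c siRNA lies between 65.1 and 68.3 on day 0, and Hist4h4 is the highest of the 4.

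Peaks with the next smallest p were not called. In scramble between days -2 and 0 these were Hist1h3b at -0.84 (SE 0.33), Hist1h2an at -0.48 (SE 0.20) and Hist1h2bf at -0.71 (SE 0.31), with adjusted p of 0.0512, 0.0779 and 0.0963 in edgeR; with nuclear totals as library sizes, Hist1h3b (-0.95, adjusted p 0.0255) and Hist1h2an (-0.60, 0.0252) were called. Per base of peak Hist1h3b was at -0.05 and Hist1h2an at -0.24, and as counted Hist1h3b was called without Kdm5c siRNA library 2 of day -2 or scramble library 1 or 2 of day -1 or 1 or 4 of day 0. Kdm5c siRNA gave for the same days H2afj at 0.42 (SE 0.16), H1foo at -0.65 (SE 0.25), Hist1h4a at 0.56 (SE 0.22), H2afz at -0.40 (SE 0.18) and Hist1h2al at -1.20 (SE 0.59). Of these, H2afj had an adjusted p of 0.0529 and was called without 1 of 8 libraries (Kdm5c siRNA library 3 of day -2 or 1, 2 or 3 of day -1, scramble library 3 or 4 of day -1 or 1 or 3 of day 0), while per base of peak it was at 0.04. H1foo was called with nuclear totals (adjusted p 0.0388) and without Kdm5c siRNA library 2 of day -2 (0.0399), and at 25% overlap H2afj (0.0174) and Hist1h4a (0.0277) were called. Hist1h2al, with low counts, ranged from -1.91 to -0.63 without 1 library and was at -0.45 per base. Between days -2 and -1 in that arm, Hist1h2ae was at -0.77 (SE 0.30), Hist1h2an at 0.43 (SE 0.20), the Hist1h1e-start peak named Hist1h2be at -0.62 (SE 0.29) and Hist4h4 at 0.26 (SE 0.13). The Hist1h2ae value was -1.41 and called (adjusted p 0.00745) without Kdm5c siRNA library 4 of day -1, and -0.16 per base of peak.

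The sign of the members' median changed with counts per base of peak from day -2 to the later days, but not from day -1 to 0. In scramble the median log2 fold change of the 39 members was -0.09 from day -2 to -1, -0.07 from day -1 to 0 and -0.19 from day -2 to 0, and in Kdm5c siRNA -0.02, -0.14 and -0.13, beside medians from -0.006 to 0.020 for all matched peaks. The authors' peaks differed in width between days. The matched members had median widths of 898, 710 and 666 bases on days -2, -1 and 0, against 705, 624 and 655 for all matched peaks. With counts taken per base of peak, the medians from day -2 to 0 were 0.03 in scramble and 0.24 in Kdm5c siRNA, beside 0.120 and 0.101 for all matched peaks. From day -2 to -1 they were 0.10 and 0.20, beside 0.156 in each arm. So from day -2 to either later day the scramble median was below that of all matched peaks, both as counted and per base. The Kdm5c siRNA median was below that of all matched peaks as counted and above it per base. From day -1 to 0 the per-base medians of the members stayed below 0, at -0.14 and -0.08, with 25 and 27 of the 39 below 0, beside -0.051 and -0.058. Per base, 4 members were called from day -2 to 0 in scramble, H3f3aos at 0.58 and Hist1h4f at 0.97 higher and Hist1h4m at -1.69 and Hist4h4 at -0.47 lower; these were picked out after their values were seen. Of all matched peaks 15.5% were called in that setting.

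**Figure D5:**
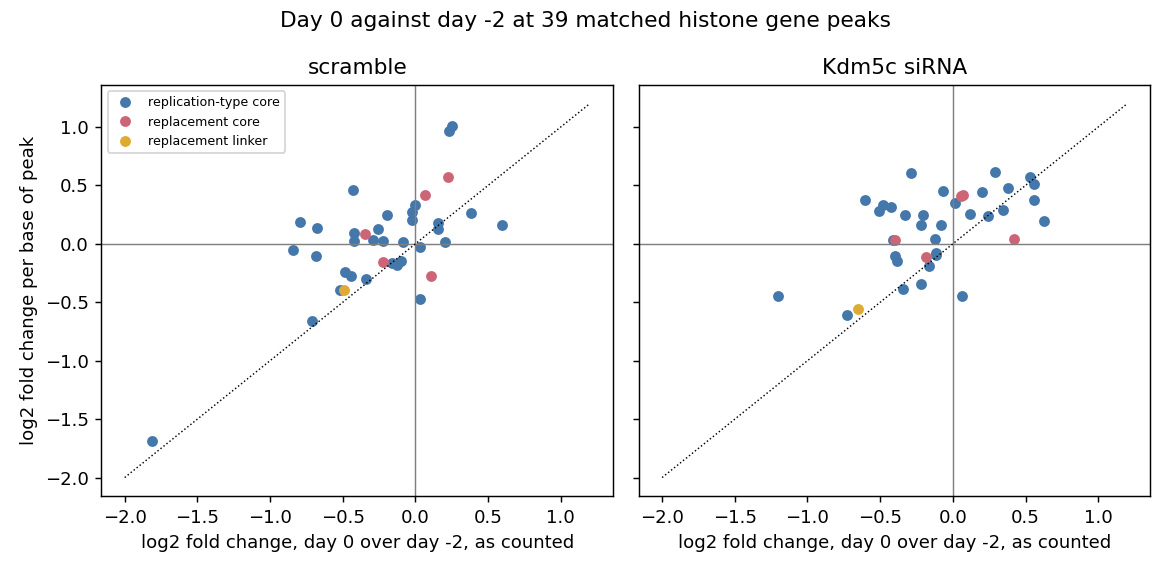
Each point is 1 of 39 matched member peaks, with its log2 fold change of day 0 over day -2 as counted (horizontal axis) and per base of peak (vertical axis), for scramble and Kdm5c siRNA; the dotted line marks equal values. Both panels use the same peak widths, so the 29 points above the line in each are the peaks that were narrower on day 0. Median member widths were 898 bases on day -2 and 666 on day 0.

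Whether the siRNA effect differed between days was tested as an interaction at the matched peaks. No member was called in any of the 3 tests, nor was any other matched peak (0% each), while 2, 3 and 2 members had an unadjusted p under 0.05, beside 4.92%, 5.21% and 6.41% of all. The smallest p, singled out after the values were seen, were Hist2h4 between days -2 and -1 at 1.01 (SE 0.34; adjusted p 0.955, edgeR), Hist1h2ae between days -1 and 0 at 1.18 (SE 0.44; adjusted p 0.835) and Hist1h2bf between days -2 and 0 at 1.238 (SE 0.45; adjusted p 0.677). In DESeq2 no member was called either, and 3, 3 and 2 had an unadjusted p under 0.05.

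Genes that serve histone supply were set beside the histone genes, from a list of 41 genes for histone transcription, mRNA 3′ processing and histone chaperones. Of these, 34 had a named peak on each day, all 34 were tested, and 0 were called for siRNA in edgeR on any day, while 3, 2 and 4 had an unadjusted p under 0.05, beside 4.63%, 5.37% and 6% of all peaks. Medians were -0.01, -0.03 and -0.01. On day -2 the smallest p were at Lsm11, a part of the U7 particle that cuts histone pre-mRNA (0.47, SE 0.20), Pou2f1, the Oct1 factor that binds the octamer (0.28, SE 0.14), and Hinfp, a factor for H4 genes (0.38, SE 0.19). On day -1 they were at Atrx, which works with Daxx to place H3.3 (-0.86, SE 0.33), Chaf1a, of the chaperone that places new H3 and H4 at replication (0.59, SE 0.22), and Hinfp (0.49, SE 0.26). Day 0 gave Cpsf2, a cleavage factor (-0.55, SE 0.20), Mcm2, of the replicative helicase (0.61, SE 0.25), and Rbbp4, a histone-binding protein (-0.34, SE 0.17).

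Between days a few supply genes were called. Of 26 that were tested at matched peaks, 4 rose and 1 fell in scramble from day -2 to 0, and 1 rose and 2 fell in Kdm5c siRNA, beside 20.6% and 14.9% of all matched peaks called. Asf1a, a chaperone of H3 and H4, rose in both arms, by 0.69 (SE 0.13; adjusted p 2.76e-05, edgeR) and 0.78 (SE 0.14; adjusted p 8.22e-06). Ccne2, a cyclin E, fell in both, at -0.48 (SE 0.14) and -0.80 (SE 0.14). The Asf1a peak was 1049 bases wide on day -2 and 1387 on day 0, the Ccne2 peak 1907 and 1114. Per base of peak Asf1a was at 0.28 and 0.38 and Ccne2 at 0.30 and -0.02, none called. Whether peak width itself follows accessibility was not tested, so the values per base do not explain the calls. Ccne1, the other cyclin E, at 0.58 (SE 0.14) and Rbbp4 at 0.56 (SE 0.16) rose in scramble and were called per base too. Yy1 rose in scramble (0.40, SE 0.13), a call lost with nuclear totals as library sizes (adjusted p 0.112), at peaks matched by 80% overlap (0.141) and without scramble library 3 of day -2 or 4 of day 0 (up to 0.0597), and Cpsf2 fell in Kdm5c siRNA (-0.66, SE 0.18), not called per base (adjusted p 0.188).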

How the data were processed

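The authors deposited raw read counts per ATAC-seq peak, 1 table per day for 23 libraries, on GRCm38 per the labels. They also deposited DESeq2-normalised signal (each count divided by 1 constant per library), which served here only for the authors' gene name of each peak. The submitters' processing notes list, without roles, DESeq2 1.24.0, HTSeq 0.9.1, MACS2 2.1.1, Bowtie2 2.2.9 and cutadapt 2.3. Whether peak starts count from 0 or 1 and how multi-mapping reads were treated is stated in neither labels nor headers. No per-sample column was left unused.

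Members and gene lists were chosen with earlier results of these data known. The raw counts were tested with edgeR 4.0.16 (R 4.3.3): TMM scaling, its filter on low counts, quasi-likelihood F test and Benjamini-Hochberg adjustment over all peaks, called under 0.05. Each day was fitted alone, arms compared. Days were compared, and the siRNA effect between days, in 1 fit over peaks matched 1 to 1 by 50% reciprocal overlap (bedtools 2.31.1). The SE was taken as the log2 fold change over the root of F. Normalised counts are counts over the effective library size relative to its mean. The code was tested on simulated data. Library totals, given in the report, set the precision.

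Named were, per siRNA comparison, called members filled up to 5 by the smallest p, Hist1h1c and the 3 supply genes with the smallest p. Per day comparison they were called members whose days do not overlap or, where none, the 5 with the smallest p. Replacement genes were named with their values. Other called peaks, supply genes called between days, and extremes of level were named after their values were seen. Alternatives were RLE factors, nuclear totals, no filter, no mitochondrial peaks, DESeq2 1.42.0, an offset by peak width, a replicate block, other overlaps (25% was chosen after seeing the data) and each library left out.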

Additional observations from a re-analysis of the deposited data

Results flagged for a closer look

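In 108 groups of 4 libraries, 5 had a library whose gap to the nearest other took most of the range of the group; chance gives about 1 in 20 such groups. Of the scramble libraries of day -2, the highest at the Hist1h2an peak held 116.8 normalised counts and the next 75.97, and at the matched peak, scaled over all days, 90.55 and 60.4. At Hist1h1c on day -1 the lowest Kdm5c siRNA library held 57.09 and the next 70.77. At the matched Hist1h2bf peak the lowest Kdm5c siRNA library of day -1 held 19.51 and the next 24.72. At the matched Hist1h4d peak the highest scramble library of day 0 held 43.94 and the next 30.24.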

How the results depend on the processing

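No histone peak was called for siRNA on any day, nor in any interaction, under each alternative run and without each library in turn. Counts of histone peaks called between days did move. In the order day -1 against -2, day 0 against -1 and day 0 against -2, scramble gave 1, 1 and 2, and Kdm5c siRNA 1, 1 and 0. An offset by peak width gave 3, 0 and 4 in scramble and 4, 0 and 1 in Kdm5c siRNA. An overlap of 80%, which left 15 histone peaks, gave 0, 0 and 1 in scramble and 0, 0 and 0 in Kdm5c siRNA, and one of 25%, with 49, gave 2, 2 and 5 and 5, 2 and 3. The share of all matched peaks called moved too: for day 0 against -2 in scramble it was 20.6% as reported, 15.5% with the width offset, 10.6% at 80% and 28% at 25% overlap, and in Kdm5c siRNA 14.9%, 8.38%, 7.28% and 22%. Nuclear totals as library sizes gave 5 for day 0 against -2 in scramble and 1 in Kdm5c siRNA, and moved the median of all matched peaks in the scramble comparison from 0.020 to -0.093. DESeq2 gave 0 for day 0 against -1 in Kdm5c siRNA.

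Without 1 library, the counts ranged over 0 to 1, 0 to 2 and 0 to 3 in scramble, and 0 to 1 in each Kdm5c siRNA comparison. The median siRNA difference of day 0 ranged from -0.012 to 0.087, and Hist1h1c from -0.057 to 0.133 on day -1 and from -0.173 to 0.26 on day 0. With the width offset, values turned sign at Hist2h4 (0.045, day -1 against -2, scramble), Hist4h4 (-0.009, the same days, Kdm5c siRNA), H2afz (0.033, day 0 against -2, Kdm5c siRNA) and Ccne2 (0.295, day 0 against -2, scramble; 0.159, day -1 against -2, Kdm5c siRNA). The offset sets counts per base by construction. It also moved the median of all matched peaks, from -0.006 to 0.156 for day -1 against -2 in each arm, so these signs are against 0 only. For the other alternatives the cause was not tested.

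Deviations of same-numbered libraries of the 2 arms correlated between -0.04 and 0.156, and those of differently numbered libraries between -0.156 and 0.098. No shared variation by number was seen. With so few libraries this cannot show whether same-numbered libraries shared a culture or preparation. With the replicate number as a block, 0 histone peaks were called for siRNA on each day, Hist1h1c on day -2 had an adjusted p of 0.555 in edgeR, and the counts between days were as without it.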
